A study of Saccharomyces cerevisiae with 16 samples.

Results

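The calling-card library of the yeast activator Gal4 in a strain without a further deletion is 1 of 16 libraries of the series. It was chosen by its title, as the only Gal4 library that names no other deleted gene, and all 4532 nuclear regions between neighbouring genes in its table were analysed. In this assay a transcription factor is fused to Sir4, a silencing protein that captures the integrase of the retrotransposon Ty5, so that Ty5 copies settle near DNA that the fusion occupies. Genomic DNA was cut in 3 separate digests, circularised and amplified outwards from Ty5 to map the insertions.

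Per the labels the Gal4 library came from strain BY4741 with the genotype sir4D gal4D, so chromosomal SIR4 and GAL4 were deleted and the fusion was the only Gal4 present. The fusion was expressed from the ADH1 promoter on a plasmid marked with LEU2 and URA3, not from the GAL4 promoter, and Ty5 stood on a HIS3 plasmid under the inducible GAL1/10 promoter. Both promoters thus also existed as plasmid copies. The 11 other factor libraries (Leu3, Yrm1, Yrr1, Tea1, Lys14, Cat8, Cha4, Put3, Urc2, Hal9 and Aro80) were made in BY4741 with SIR4 and the factor's own gene deleted, and keep chromosomal GAL4 as far as their genotypes say. The other 4 Gal4 libraries carry sir4D gal4D and a further deletion, HMO1 in BY4742, LEU3 in BY4743, SEF1 in BY4744 and YRM1 in BY4745 as labelled, so that strain name and deletion cannot be told apart. Each group has 1 library. No value therefore has a replicate error, and the tests compare sets of insertions, not repeated cultures.

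Gal4 is the founding member of the fungal zinc cluster family, factors that bind paired CGG triplets as dimers. In galactose the sensor Gal3 relieves the inhibitor Gal80, and Gal4 then activates the genes that import galactose and convert it to glucose phosphate. It is a textbook model of an activator with few, strong targets.

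The Gal4 library held 33645 insertions and the background set deposited in the same table held 103922. Regions are named by their flanking genes, levels are insertions per 100000 in a set, where 1 Gal4 insertion is worth 2.97, and a fold is the Gal4 share over the background share with an exact 95% interval for counting error. A region was called enriched at an adjusted p of 0.05 or less (two-sided Fisher's exact test on the counts, Benjamini-Hochberg over 4532 regions) with a higher share in the Gal4 library and at least 5 insertions. By this rule 86 regions (1.90%) were enriched and 458 (10.1%) were below background. Calls need more than a handful of insertions: with 8 background insertions, the median of all regions, 10 Gal4 insertions were needed, and with 44, the median of the enriched regions, 29 were. Coordinates are as deposited, and the submitters' processing notes name the build sacCer2.

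The galactose genes led the library. The promoter of GAL2, the galactose permease gene (EMP46/GAL2, chromosome XII 289251 to 290213), held 1781 insertions against 73 in the background, 75.4-fold (59.6 to 96.6). GAL7/GAL10 (chromosome II 275527 to 276253) holds the promoter of GAL7, the transferase of the galactose pathway, and had 1410 against 42, 104-fold (76.3 to 145). GAL10/GAL1 (chromosome II 278352 to 279021), from which the epimerase and galactokinase genes start in opposite directions, had 850 against 21, 125-fold (81.3 to 203). These regions ranked 1, 2 and 6 by insertions and 4, 2 and 1 by fold. The GAL10/GAL1 sequence is also on the Ty5 plasmid, and the part of plasmid copies in its count was not tested.

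All 10 regions of a list of 11 known Gal4 target genes were enriched, but the other 7 were far weaker than those 3. FUR4, a uracil permease gene downstream of GAL1 (GAL1/FUR4), held 138 insertions (12.2-fold, 8.35 to 18.2). GCY1, a glycerol dehydrogenase gene, held 122 in a region shared with RIO1 (4.49-fold). The regulators GAL3 and GAL80 held 61 (11.8-fold, 6.70 to 21.9) and 60 (6.39-fold, 4.04 to 10.3). PCL10, a cyclin of the Pho85 kinase that acts on glycogen synthase, held 63 (10.2-fold), and PGM2, the phosphoglucomutase that ends the galactose pathway, held 49 (5.41-fold). MTH1, a repressor of hexose transporter genes, held 41 in a region shared with RNH202 (2.30-fold, 1.498 to 3.51). LAP3, an aminopeptidase gene also named GAL6 and not on the list, held 75 in a region shared with NAR1 (8.91-fold, 5.64 to 14.5). The list as a whole held 4575 insertions, 13.6% of the library (13.2 to 14.0), with a median fold of 11.01. The median over all regions with background insertions was 0. The list was written with earlier results of these data known, so its count describes the library and does not test it.

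More of the enrichment lay outside that list than in it. The 76 other enriched regions held 10664 insertions, 31.7% of the library (31.2 to 32.2) and 70.0% of all insertions in enriched regions, against 3.77% of the background. Pooled, they were 8.40-fold over background (8.10 to 8.72). They made up 7 of the 10 regions with the most insertions and 22 of the 28 regions at 10-fold or more. Of these 76 regions, 20 held more insertions than GAL1/FUR4, the largest of the 7 weaker list regions.

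**Figure D1:**
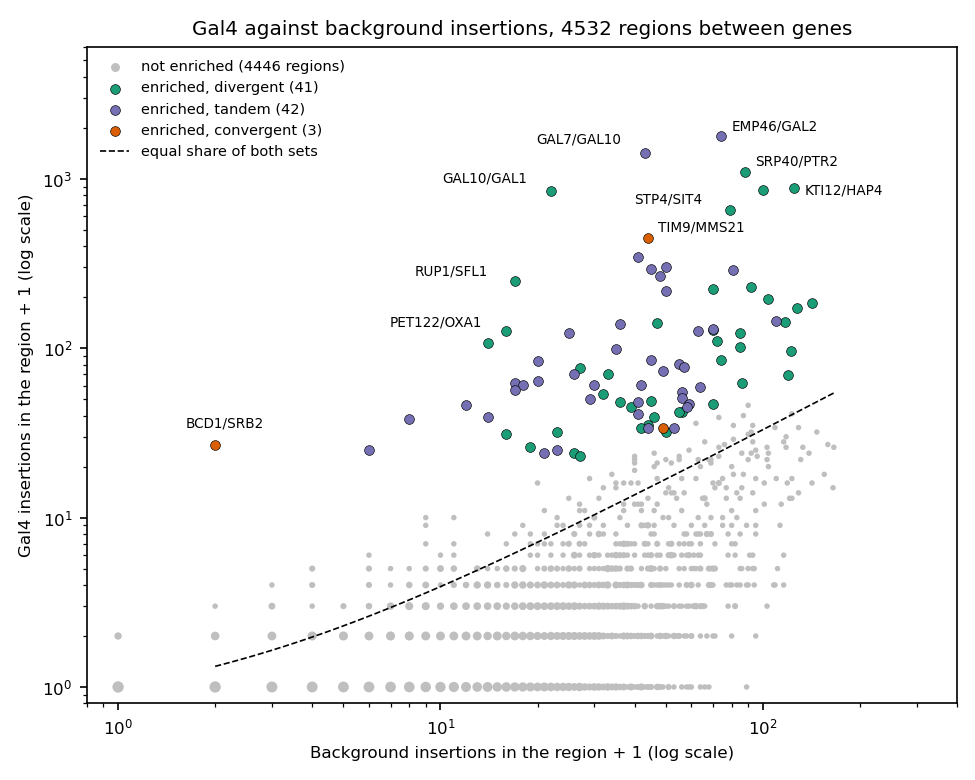
Background insertions (x axis) against Gal4 insertions (y axis) for each of 4532 regions, both plus 1 on log scales; grey points are regions not enriched, coloured points the 86 enriched ones by the orientation of their flanking genes, and the dashed line marks an equal share of both sets. EMP46/GAL2, GAL7/GAL10 and SRP40/PTR2 stand highest, BCD1/SRB2 stands out at 26 insertions against 1, and most grey points lie below the line.

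Insertions were concentrated in few places. The region with the most insertions held 5.29% of the library, the first 3 held 12.7%, the first 10 held 25.6% and the first 30 held 36.4%, against 0.159%, 0.469%, 1.41% and 3.70% for the first 1, 3, 10 and 30 regions of the background. In the Gal4 library 17 regions were enough to hold 50% of the insertions between genes, while the background needed 600. At the other end, 2976 regions (65.7%) held no Gal4 insertion. The 86 enriched regions together held 15239 insertions, 45.3% of the library (44.8 to 45.8), against 4.16% of the background, a pooled fold of 10.9 (10.5 to 11.3). The regions were chosen by these same counts, so this fold and that of the 76 regions outside the list are descriptions, and their intervals leave out the effect of the choice.

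**Figure D2:**
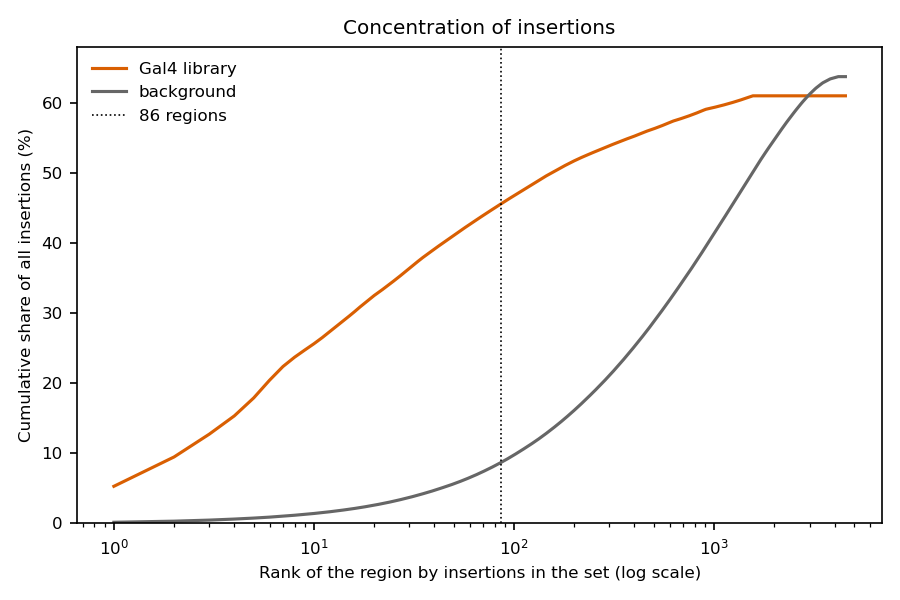
Cumulative share of all insertions of a set (y axis, %) by the rank of the region within that set (x axis, log scale) for the Gal4 library and the background; the dotted line marks rank 86. The Gal4 curve reaches 25.6% at rank 10, where the background curve is at 1.41%, and flattens once the regions with insertions are used up.

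Within the enriched set the folds ran from 1.77 to 125 with a median of 5.55. Of the 86, 28 were at 10-fold or more, 29 from 4 to 10, 26 from 2 to 4 and 3 below 2. Rank by insertions and rank by fold were related only in part (Spearman's rho 0.618 over 86 regions, which share the insertion count). A wide promoter with many background insertions can hold more Gal4 insertions than a short one at a lower fold. KTI12/HAP4 had 876 against 124, 21.8-fold, while RUP1/SFL1 had 247 against 16, 47.7-fold. Enriched regions were long and rich in background insertions, with a median length of 1007 bp against 439 bp for all regions and a median background of 44 against 8. Of the 86, 55 had at least 36 background insertions, the level of the top 10% of regions. The smallest fold that could be called was 3.86 with 8 background insertions, 2.04 with 44 and 1.64 with 100.

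Enriched regions were mostly promoters. Divergent regions, which hold the promoters of both neighbours, were enriched in 41 of 1163 cases (3.53%), tandem regions with 1 promoter in 42 of 2203 (1.91%) and convergent regions, where both neighbours end, in 3 of 1166 (0.257%). Taken whole, divergent regions held 29.3% of Gal4 insertions against 25.2% of the background, tandem regions 29.3% against 32.6% and convergent regions 2.50% against 5.97%. Convergent regions are short, with a median length of 264.5 bp and a median background of 1, so few of them could be called. Protein-coding genes between the flanking ones (inner genes) lay in 26 of the 86 enriched regions and in 785 of all 4532. SNP1/VHR1, BTS1/VPS28, PMA1/PMC1 and SCM4/YGR054W held 3 each, and TAH1/BUD31, PCD1/ACS2, HXT6/HXT3 and PGM2/YKU80 held 1 each. Insertions in such regions were not assigned to single genes. The enriched regions lay on 15 chromosomes.

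**Figure D3:**
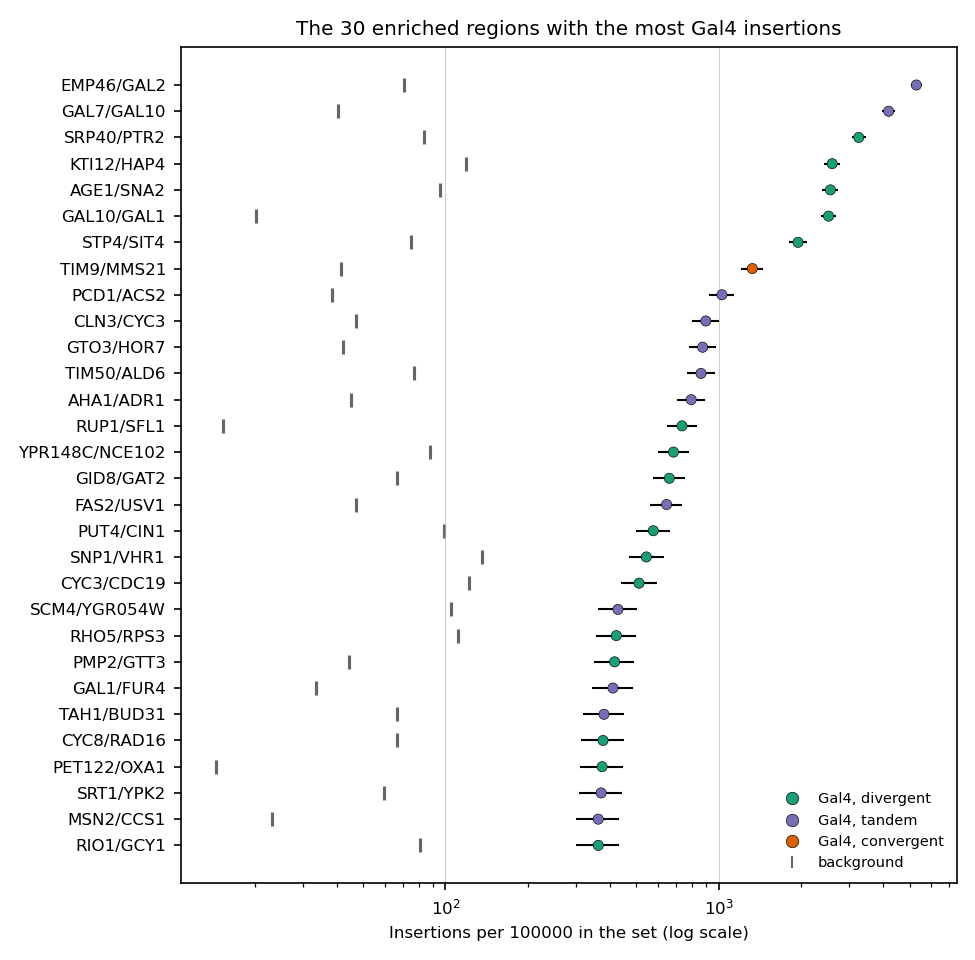
Insertions per 100000 (x axis, log scale) in the 30 enriched regions with the most Gal4 insertions; points are the Gal4 library, coloured by orientation of the flanking genes, with exact 95% intervals, and grey ticks are the background. In all 30 the Gal4 interval lies above the background tick, from 5294 against 70.2 at EMP46/GAL2 down to 363 against 80.8 at RIO1/GCY1.

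Genes of transcription factors and cofactors faced 18 of the enriched regions, with folds from 2.06 to 47.7 and 9.97% of the library. The grouping by role used here was made after the enriched regions were known, covers 66 of their 124 facing genes and is a description. Roles were not given to the other regions, so the role counts have no share over all regions beside them. Some regions, such as STP4/SIT4 and SPT8/ERG3, count under more than a single role, so the shares of roles overlap. HAP4, the activating subunit of the HAP complex that drives respiratory genes, shares the region KTI12/HAP4 (chromosome XI 229524 to 231871) with KTI12, a factor of tRNA modification. It held 876 insertions. ADR1, an activator of glucose-repressed genes, held 267 in a tandem region that no other flanking gene faces and that also holds the annotated gene YDR215C (AHA1/ADR1, chromosome IV 893925 to 895032), 17.5-fold (12.8 to 24.5). HAP4 and ADR1 were the enriched members among 15 regions of genes that regulate respiration and growth on non-fermentable carbon, a group with a median fold of 0.193. This and the later list counts are to be read against 1.90% enriched and 10.1% below over all regions. Median backgrounds of the lists ran from 8 to 50 insertions, against 8 for all regions. A low share is called more easily where the background is deep.

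STP4, a zinc finger gene related to the amino acid response factors STP1 and STP2, shares its region (STP4/SIT4, chromosome IV 368211 to 369769) with the phosphatase gene SIT4 and held 657 insertions, 26.0-fold (20.5 to 33.3). It was the enriched member among 16 regions of amino acid sensing genes, of which 3 were below background. SFL1, a repressor of flocculation genes (RUP1/SFL1, chromosome XV 586325 to 586982), held 247, 47.7-fold (28.8 to 84.7), the largest fold among promoters outside the target list. GAT2, a GATA-type factor, shares its region with GID8, a subunit of the ubiquitin ligase that removes gluconeogenic enzymes, and held 222 (9.94-fold). USV1, a zinc finger gene, held 217 in a tandem region (13.7-fold, 9.99 to 19.1).

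Regions with fewer insertions faced further regulators. MSN2, the general stress activator, held 122 insertions (15.7-fold, 10.1 to 25.4). CYC8, which encodes a corepressor that works with Tup1, held 127 in a region shared with RAD16 (5.69-fold). VHR1, a regulator of biotin genes, held 183 in one shared with SNP1 and 3 inner genes (4.01-fold). MCM1, encoding a MADS-box factor, held 72 (4.63-fold) and SPT8, encoding a subunit of the SAGA coactivator, held 69 (6.66-fold) in a region shared with ERG3. DOT6, SOK2, MOT3 and CIN5 held 58, 46, 44 and 23 insertions at 2.84-fold, 2.06-fold, 2.38-fold and 2.84-fold. SOK2 and CIN5 shared their regions with SPO20 and DFG16. Of 44 regions in a list of mostly zinc cluster factor genes, Gal4's own family, 0 were enriched and 7 were below background, where 1.90% and 10.1% of all regions were. A count of 0 is near that background. The list also holds XBP1 and HOT1, which are of other families, and leaves out EDS1, a zinc cluster gene that lies inside the enriched region RPL4A/HMT1. Together the 44 stood at 0.251 of their background share (0.196 to 0.317), against 0.264 for all regions not enriched. At an unadjusted p of 0.05 or less (Fisher's exact test) and at the authors' p of 0.001 or less, 0 of these 44 were above background as well.

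Transporter genes faced 11 enriched regions with 10.8% of the library. After GAL2, PTR2, the peptide transporter gene, was the largest: SRP40/PTR2 (chromosome XI 613527 to 615372) held 1096 insertions, 38.9-fold (31.3 to 49.0), in a region shared with the nucleolar protein gene SRP40. PUT4, the proline permease gene, held 194 in a region shared with CIN1 (5.82-fold, 4.56 to 7.46). These 2 were the enriched ones among 24 regions of amino acid and peptide transport genes, 6 of which were below background. Among 17 regions of hexose transport genes GAL2 and HXT6 were enriched, HXT6 with 80 insertions (4.58-fold, 3.20 to 6.59), and 5 were below. HXT6 and HXT7 are near-identical copies, and how reads that match both were placed is not given in the sources used here. TPO1 and TPO4, polyamine exporter genes, held 60 and 84 insertions (4.52-fold and 3.55-fold), and PDR15, a drug pump gene, held 40 (3.09-fold), of 22 regions in their list. TPO4 shared its region with MOD5. The other regions with a transporter were PMA1/PMC1, between the genes of the proton and calcium pumps, with 95 (2.43-fold), ATO2, a gene of the acetate and ammonium transporter family, with 45 (12.6-fold) and AAC1, encoding a mitochondrial ADP/ATP carrier, with 31 (4.35-fold). AAC1 shared its region with FET3.

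Genes of central carbon metabolism and mitochondria faced 13 enriched regions, which held 3.38% of the library. ALD6, the cytosolic acetaldehyde dehydrogenase gene, had the most insertions, 290 against 80 (11.2-fold, 8.71 to 14.5). The highest folds were at 2 short divergent promoters. PET122/OXA1, whose OXA1 encodes a membrane insertase of mitochondria, held 126 insertions against 15 in 215 bp (25.9-fold, 15.1 to 47.7), and MLF3/MSK1, whose MSK1 encodes the mitochondrial lysyl-tRNA synthetase, held 106 against 13 in 262 bp (25.2-fold, 14.1 to 48.9). CDC19, encoding pyruvate kinase, held 172 in a region shared with CYC3, the cytochrome c heme lyase gene (4.18-fold, 3.31 to 5.30), and was the enriched member among 24 regions of glycolysis and fermentation genes, 10 of which were below background. Of all regions 1.90% were enriched and 10.1% below, and the median background of these 24 was 50 insertions. PUT1, the proline oxidase gene, held 83 (13.5-fold), ZWF1, the first enzyme of the pentose phosphate pathway, held 47 (3.63-fold), FUM1, the fumarase gene, held 47 (4.15-fold), COR1, of respiratory complex III, held 48 (3.37-fold), and the malate dehydrogenase genes MDH1 and MDH2 held 24 and 31 (3.37-fold and 1.95-fold). FUM1, COR1 and MDH2 shared their regions with KEL3, ECM13 and TRM13.

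Lipid and sterol genes faced 8 enriched regions with folds of 1.77 to 6.66 and 1.501% of the library. ACC1, the acetyl-CoA carboxylase gene that opens fatty acid synthesis, held 109 insertions in a region shared with TIM23 (4.74-fold, 3.48 to 6.49), and BTS1, the geranylgeranyl diphosphate synthase gene, held 101 in one shared with VPS28 (3.71-fold). ERG3, a sterol desaturase gene, stood at 6.66-fold, PLB1, a phospholipase gene, at 5.28-fold, OLE1, the fatty acid desaturase gene, at 2.44-fold and ARE2, a sterol acyltransferase gene, at 2.45-fold. ERG3, PLB1 and OLE1 shared their regions with SPT8, ADI1 and SDS23. Of 25 regions of sphingolipid synthesis genes 0 were enriched and 7 were below background, where 1.90% and 10.1% of all regions were, so that the count of 0 says little about these genes. Their median background was 25 insertions against 8 for all regions. At an unadjusted p of 0.05 or less (Fisher's exact test) and at the authors' p of 0.001 or less, 0 of the 25 were above background too.

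Cyclins, kinases and phosphatases faced 7 enriched regions. CLN3, the G1 cyclin gene (CLN3/CYC3, chromosome I 67521 to 68717), held 302 insertions against 49, 19.0-fold (14.0 to 26.3), in a tandem region with no other promoter. CLN3 and PCL10 were the enriched ones among 18 cyclin regions, and 9 of the 18 were below background, where 1.90% and 10.1% of all regions were. Their median background was 36.5 insertions against 8 for all regions, and a low share is called more easily where the background is deep. MRK1, a kinase gene of the GSK-3 family, held 69 (8.53-fold). IME2, the meiotic kinase gene, held 41 in a region shared with PRM10 (2.35-fold) and was the enriched member of 12 meiosis regulator regions. SKS1, a kinase gene of glucose signalling, held 44 in a region shared with RMI1 (3.58-fold). With MTH1 and CYC8, SKS1 made 3 enriched regions among 21 of glucose sensing and repression genes.

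Several regions with many insertions faced genes outside these groups. AGE1/SNA2 (chromosome IV 1488983 to 1490589) held 863 insertions against 99, 26.9-fold (21.8 to 33.5). AGE1 encodes a GTPase activator for Arf proteins, and 3 further annotated genes lie between it and SNA2. PCD1/ACS2 held 346 (26.7-fold, 19.2 to 38.1) and faces PCD1, a peroxisomal hydrolase gene, while ACS2 ends there. HOR7, a gene known for its response to high osmolarity, held 294 (20.6-fold) and NCE102, an eisosome protein gene, held 230 in a region shared with YPR148C (7.81-fold). SCM4/YGR054W, PMP2/GTT3 and TAH1/BUD31 held 144, 140 and 128 (4.08-fold, 9.40-fold and 5.73-fold). The counts that follow stand beside 1.90% of all regions enriched and 10.1% below, and a single enriched region in a list of this size is near that background. Of 27 regions of stress response genes MSN2 was enriched and 8 were below background. Of 30 cell wall and flocculation regions TIP1 and GSC2, which shares its region with NAG1, were enriched at 1.96-fold and 2.49-fold, with 11 below. Of 21 glycogen and trehalose regions the list members PCL10 and PGM2 were enriched, with 4 below. Ribosomal protein genes had 1 enriched region, RHO5/RPS3 with 142 insertions (3.78-fold, 2.94 to 4.87), and 41 below background among 126, so 0.794% were enriched. The median background was 24 insertions for the stress list, 32.5 for the cell wall list and 22 for the ribosomal list, against 8 for all regions. Counts below background in these lists are subject to that depth.

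Enrichment was found in 3 regions where both flanking genes end. TIM9/MMS21 (chromosome V 117474 to 120498) was the strongest, with 447 insertions against 43, 32.1-fold (23.5 to 45.0), the eighth largest count of the library. The R64 annotation places PXP1 inside this region. It was also the 1 region over 4 times the highest of the HMO1, SEF1 and YRM1 deletion libraries: it stood at 1329 per 100000 (1209 to 1457) here, and at 14.4, 93.6 and 68.1 in the libraries with the HMO1, SEF1 and YRM1 deletions. The region lies near URA3, a marker of the fusion plasmid. The regions on either side of URA3 held 0 insertions against 1 (URA3/TIM9) and 0 against 2 (GEA2/URA3), which is too little background to tell a low share from a high one. A part of the marker in the count was not tested.

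RPL4A/HMT1 (chromosome II 301254 to 304930) held 33 insertions against 48, 2.12-fold (1.32 to 3.38), and contains the annotated genes YBR032W and EDS1. BCD1/SRB2 (chromosome VIII 189017 to 189124) is the enriched region with neither a facing nor an inner gene start. It held 26 insertions against 1 in 107 bp, and the fold of 80.3 has an interval of 13.2 to 3292 because it rests on 1 background insertion. Its neighbour SRB2/NCP1, a divergent promoter on the other side of the Mediator gene SRB2, was enriched as well, with 25 against 18 (4.29-fold, 2.25 to 8.35). Among 993 convergent regions without an inner gene BCD1/SRB2 was thus the 1 enriched (0.101%), and together these regions held 0.428% of Gal4 insertions against 2.62% of the background, a ratio of 0.163 (0.137 to 0.193).

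Neighbouring regions were enriched together at 7 places, where 15 enriched regions share 8 flanking genes. At the GAL cluster GAL7/GAL10, GAL10/GAL1 and GAL1/FUR4 followed each other with 1410, 850 and 138 insertions. At CYC3 the regions on both sides held 302 and 172, at PET122 they held 38 and 126, at NAR1 they held 47 and 75, at TIM23 they held 109 and 46 and at MTH1 they held 33 and 41. Whether both sides of such a gene reflect 1 site was not tested, since Ty5 can settle at a distance from the bound site and the tables hold counts per region.

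The Gal4 library was next set against the summed 293586 insertions of the 11 other factor libraries, which does not use the background, over the 4383 regions whose flanking genes match between all tables. Gal4 was higher at 72 regions (1.64%) and lower at 349 (7.96%). The shared set holds 81 of the enriched regions, which were chosen for high counts in this Gal4 library, so that the following counts describe them and are partly fixed by that choice. Of the 81, 62 were higher, 7 lower and 12 neither, and Gal4 had the highest share of the 12 factor libraries at 46. At 34 of all shared regions it was higher than each of the 11 libraries in tests against every library alone.

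GAL10/GAL1 stood furthest apart, at 206 times the share of the other factors (148 to 296). It had 2526 per 100000 for Gal4 and 3.19 to 32.8, with a median of 10.9, in the other 11. GAL7/GAL10 and EMP46/GAL2 followed at 137 (110 to 171) and 102 (86.6 to 121). The largest ratios beyond the galactose genes were 75.0 at TIM9/MMS21, 45.4 at BCD1/SRB2, 44.0 at PET122/OXA1 (28.5 to 70.5), 29.8 at MLF3/MSK1 (19.8 to 46.1) and 25.6 at AGE1/SNA2 (22.4 to 29.3). CLN3/CYC3, KTI12/HAP4 and SRP40/PTR2 stood at 20.1, 19.4 and 18.3.

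Other strong Gal4 regions were strong for another factor as well. STP4/SIT4 held 1953 per 100000 for Gal4 and 2040 for Tea1, with a median of 162 over the other 11, and its ratio to the sum was 4.29 (3.90 to 4.71). PUT4/CIN1 held 577 for Gal4 against up to 1802, in Tea1, and its ratio was 1.005 (0.861 to 1.17). MSN2/CCS1 held 363 for Gal4 and 1056 for Leu3, and AHA1/ADR1 held 794 and, in Hal9, 859. The 7 regions enriched over background but lower than the summed other factors each had at least 1 much stronger library. FRA1/TPO1 held 178 for Gal4 and 8967 for Hal9 (ratio 0.262), RRN5/PUT1 held 247 and, in Put3, 4224 (0.587), SRT1/YPK2 held 372 and, in Yrm1, 3702 (0.488), ARP7/GLN1, next to the glutamine synthetase gene, held 160 and, in Tea1, 3309 (0.332), and MDH2/TRM13 held 92.1 and, in Cat8, 1521 (0.446). VMA13/YPR036W-A and ZWF1/NAR1 stood at 0.381 and 0.540, highest in Tea1 and Urc2.

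The 12 that were neither higher nor lower were PUT4/CIN1, TPO4/MOD5, ARG80/MCM1, DOT6/PTC2, NAT4/MOT3, SKS1/RMI1, MRP20/PDR15, SDS23/OLE1, NAG1/GSC2, PMP3/MTH1, TIP1/BAP2 and ZRG8/EDC2. A p above the threshold there does not show that Gal4 and the other factors had equal shares. In the other direction, 10 regions were higher than the other factors without being enriched over background. The largest ratio among those with at least 5 insertions was 14.5 at MVP1/TAF4 (2.83 to 93.7), with 5 Gal4 insertions against 3 in the sum, followed by SEC14/NAM7 at 9.82 (3.36 to 29.2) and BOS1/SIC1 at 8.73 (3.07 to 24.8), with 9 each.

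**Figure D4:**
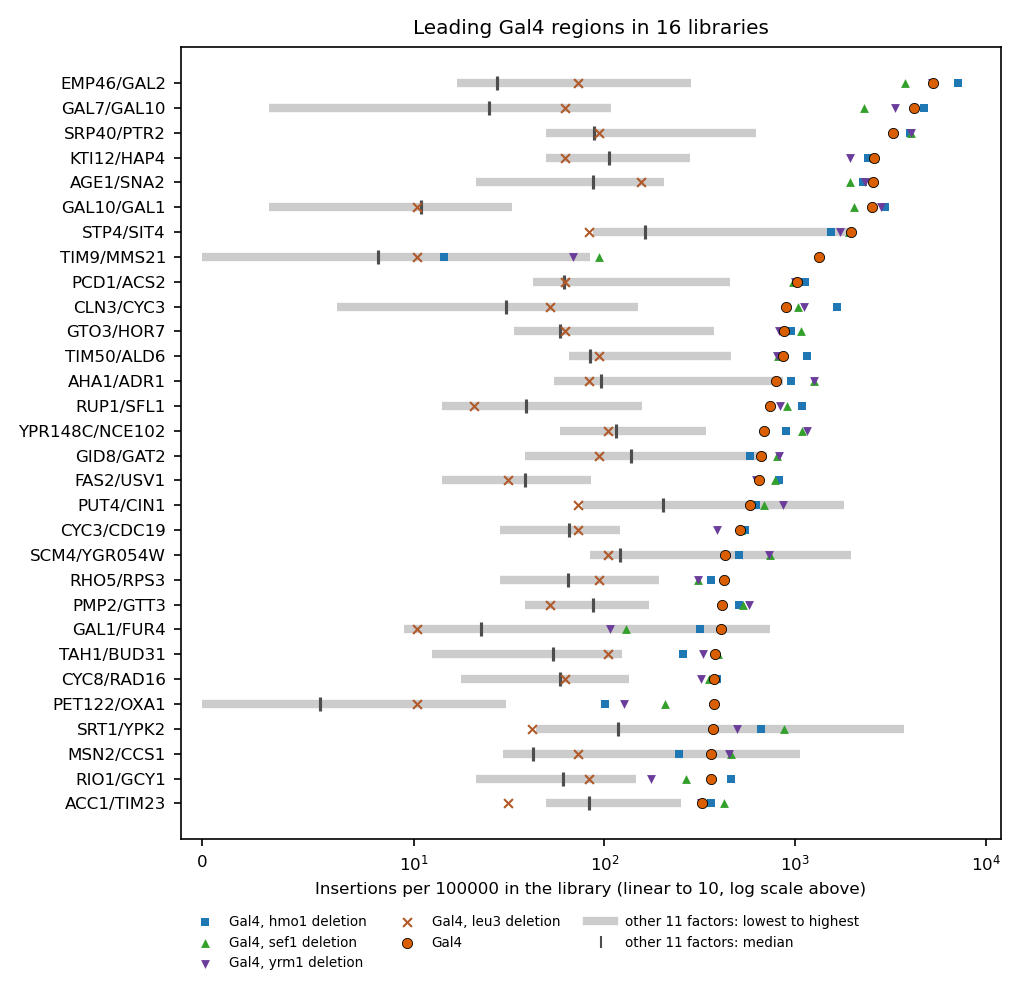
Insertions per 100000 (x axis, linear to 10 and log above) at the 30 shared enriched regions with the most Gal4 insertions; circles are the Gal4 library, other symbols the 4 Gal4 libraries with a further deletion, grey bars the range over the 11 other factors and ticks their median. The HMO1, SEF1 and YRM1 deletion libraries lie close to the circle at most regions and far from it at TIM9/MMS21, and the LEU3 deletion library lies in or near the grey bar throughout.

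The other 4 libraries labelled Gal4 were not used to choose the regions. Their depth was lower, with 6932, 9628, 13882 and 10280 insertions for the HMO1, LEU3, SEF1 and YRM1 deletions. The 81 shared enriched regions held 44.1% of the Gal4 library (43.6 to 44.6). They held 47.3% (46.1 to 48.4) with the HMO1 deletion, 43.4% (42.6 to 44.2) with the SEF1 deletion and 44.9% (43.9 to 45.9) with the YRM1 deletion. The library labelled with the LEU3 deletion held 3.92% (3.54 to 4.32), close to the 4.10% of the background deposited with the Leu3 factor library (3.96 to 4.23). This was below the share of every other Gal4 library. At these regions it thus did not resemble the other libraries labelled Gal4, and the cause was not tested. Over the 11 other factors the share ran from 3.69% to 24.3% with a median of 9.05%, highest for Hal9. The regions were selected in the Gal4 library, which by itself favours it in this comparison.

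**Figure D5:**
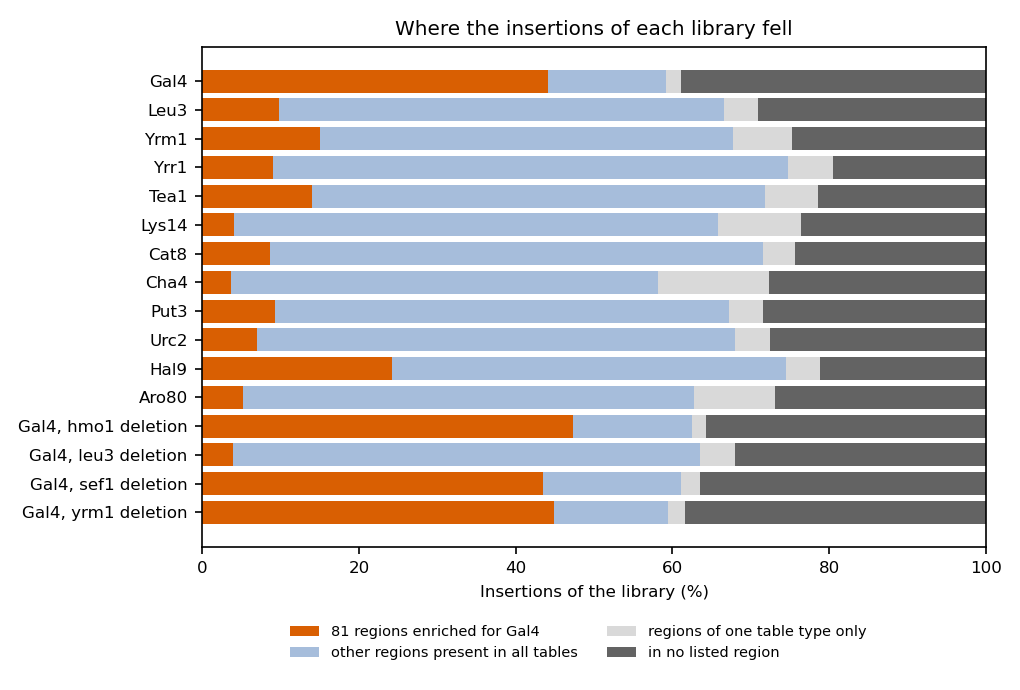
Share of each library's insertions (x axis, %) in the 81 regions enriched for Gal4 and present in all tables, in other such regions, in regions of one table type only and in no listed region, with 1 bar per library. The first bar and those of the HMO1, SEF1 and YRM1 deletion libraries hold 43.4% to 47.3% in the enriched regions, and the other 12 hold 24.3% or less.

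Region by region the median ratio to the Gal4 library was 0.971, 1.16 and 1.03 for the HMO1, SEF1 and YRM1 deletions, and 0.152 for the library labelled LEU3. Between 0.5 and 2 times the Gal4 level lay 65, 64 and 64 of the 81 regions, against 8 for the library labelled LEU3. SRP40/PTR2 stood at 3258 per 100000 for Gal4 and at 4010, 4034 and 4027 with the HMO1, SEF1 and YRM1 deletions, and KTI12/HAP4 at 2604 and 2424, 2593 and 1946. EMP46/GAL2 varied more, with 5294 and 7112, 3789 and 5243, as did GAL7/GAL10 with 4191 and 4717, 2291 and 3337. These ranges exceed the counting intervals, and with 1 library each a deletion, a strain and a single culture cannot be told apart.

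Regions of the target list did not keep 1 ratio. PGM2 stood at 146 for Gal4 and at 317, 367 and 214 in these 3, while GAL80 stood at 178 and 115, 64.8 and 58.4, and MTH1 at 122 and 57.7, 7.20 and 58.4. FUR4 stood at 410 and 317, 130 and 107. Besides TIM9/MMS21, several further regions were higher in the Gal4 library than in these 3. Among them PET122/OXA1 stood at 374 against 101, 209 and 126, and MLF3/MSK1 at 315 against 28.9, 86.4 and 58.4. SDS23/OLE1 stood at 101 against 14.4, 28.8 and 38.9, which rest on 1, 4 and 4 insertions. BCD1/SRB2 was at 77.3 here and at 0, 245 and 311, where 1 insertion is worth 14.4 in the HMO1 library. WHI5/LPX1 was the 1 region over 2 times the Gal4 level in all 3, with 71.3 against 202, 216 and 146.

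In the listed regions that were not enriched Gal4 insertions were sparse. The 4446 other regions held 5295 insertions, 15.7% of the library (15.4 to 16.1), against 59.6% of the background, a ratio of 0.264 (0.257 to 0.272). This ratio was 0.293 in divergent, 0.261 in tandem and 0.169 in convergent regions. Insertions in no listed region stood at 1.08 of their background share (1.05 to 1.10). Shares of a library add up to a fixed total, and with the totals taken without enriched regions 51 regions were below background in place of 458. Of the 458, 184 held no insertion. CRH1/HIP1, between a cell wall enzyme gene and the histidine permease gene, held 0 against 88 in the background (adjusted p = 3.32e-09, Fisher's exact test), and the upper 95% limit of its ratio to the background share was 0.132. PUP2/ENO1, at the enolase gene, held 3 against 115 (0.0806, 0.0164 to 0.241), and RAD2/TNA1, at a nicotinic acid permease gene, held 1 against 94.

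Regions of the deleted and plasmid-borne genes were read separately. GAL4/RBD2, at the start of the deleted GAL4, held 0 insertions against 26, and ADK1/SIR4 held 1 against 29, so both were below background (adjusted p = 0.0127 and 0.0390, Fisher's exact test). By the same exact test neither call held at a threshold of 0.01, with totals without enriched regions (adjusted p = 0.303 and 0.587) or with the background of the other tables (adjusted p = 0.137 and 0.234). ADH1/PHM7, whose ADH1 promoter also drives the fusion on its plasmid, held 35 against 61, 1.77-fold (1.13 to 2.73), and lay just outside the threshold at an adjusted p of 0.0626 (Fisher's exact test). Of the 5 listed regions that face the start of a deleted or plasmid-borne gene, GAL10/GAL1 was enriched. No region in the table faces the start of LEU2 or HIS3.

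The last regions inside the threshold were CIN5/DFG16, RPL4A/HMT1, ZRG8/EDC2, TIP1/BAP2 and MDH2/TRM13, with 23, 33, 22, 33 and 31 insertions and folds of 2.84, 2.12, 2.61, 1.96 and 1.95. The first outside, after ADH1/PHM7, were SEC14/NAM7, YHR080C/LRP1, GDH3/BDH1 and SAK1/RPS26B, with 9, 15, 38 and 45 insertions and folds of 3.47, 2.44, 1.63 and 1.56. Folds inside and outside overlapped, because the call depends on the counts as well as on the fold.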

How the data were processed

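Insertions of 16 calling-card libraries were grouped by the labels, 1 library per group. The authors deposited a count of insertions per region for the library and for a background set. Per the file headers the table also holds the fraction that each count makes of the set's total, by which totals were recovered, a hypergeometric p-value and counts in widened regions. The submitters' processing notes name Novoalign and sacCer2, with no version. Other steps are not given in the sources used here.

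Python 3.11.15 with scipy 1.17.1, pandas 2.3.3, numpy 2.4.6 and matplotlib 3.10.9 (figures) served for shares, folds, Fisher's exact tests and exact intervals. Fold intervals are conditional binomial and share intervals Clopper-Pearson. Intervals and floors cover counting error only, since each group has 1 library. PCR without molecular tags was used. The test was checked on counts simulated from the background with counting error alone. This leaves out variation between cultures and from PCR. A gene belongs to a region if its start faces it. Names and inner genes came from an R64 gene table. Left region edges equalled R64 gene ends in 14.5% of the Gal4 table (94.9% within 10 bp) and 99.7% of the other tables, so comparisons between tables matched flanking genes. The other tables list 4740 nuclear regions (8 others left out). Their background, 84109 insertions, was read from the table of the Leu3 factor library.

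Members and lists were chosen with earlier results of these data known. Regions named were list members that were enriched, all known targets and plasmid loci, the 30 with the most insertions, the 15 with the largest folds, those without a promoter, 5 on each side of the threshold, and the 10 furthest above the other factors with those not above them. Regions named outside this rule were chosen after their values were seen. Genes without a region of their own were HXT8, HXT17, HXK1, GSY2, ERT1, SAM3, OPT2, LYS14, URC2, TOG1, CLB6, TPO3, RGI1, RGI2, FLO1, FLO5, UME3, LEU2 and HIS3. A count of binding motifs was planned and is not analysed here, as no sequence was used.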

Additional observations from a re-analysis of the deposited data

Results flagged for a closer look

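A large part of the Gal4 insertions lies outside the listed regions and enters no comparison. These were 13111 insertions, 39.0% of the library (38.4 to 39.5), against 36.2% of the background (35.9 to 36.5), a ratio of 1.08 (1.05 to 1.10). The share was 35.7%, 36.5% and 38.4% in the Gal4 libraries with the HMO1, SEF1 and YRM1 deletions, 32.1% in the library labelled LEU3 and 19.5% to 29.0% over the other 11 factors. For these libraries it is the share outside the 4740 regions of their tables, not the 4532 of the Gal4 table. The background of the Leu3 factor library had 35.7% outside those 4740. The widened counts of the 86 enriched regions hold 2687 insertions more than the strict ones, 20.5% as many as lie in no listed region. Which genes or sites hold the rest is not analysed here.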

How the results depend on the processing

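The number of enriched regions stayed between 80 and 103 under every alternative tried. No enriched region and no region of the deleted or plasmid-borne genes changed direction in the settings that could be run for it. Other named regions were not followed singly. At a threshold of 0.01, 237 regions were below background, and with totals taken without enriched regions 51 were, in place of 458; other settings gave 401 to 603. The share of insertions in enriched regions was 46.5% with totals without enriched regions, 43.8% with the background of the other tables (77 of the 86 regions kept, with 5 of the 86 absent from those tables), and, in alternatives chosen after seeing the data, 53.3% with widened regions and 44.0% without TIM9/MMS21. Regions higher than the other factors numbered 34 where Gal4 had to exceed each library alone and 67 to 78 otherwise. ARP7/GLN1, NAG1/GSC2, TIP1/BAP2 and ZRG8/EDC2 lost their call with the other background, MDH2/TRM13, TIP1/BAP2 and ZRG8/EDC2 at the authors' p of 0.001, and RPL4A/HMT1 with these 3 at 0.01. ADH1/PHM7 gained it in 3 settings, and GAL4/RBD2 and ADK1/SIR4 lost their call below background in 3. Causes were not tested. The authors' p tests enrichment alone and gives no count below background.

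No paired analysis was possible because each group has 1 library, and for the same reason no library was left out within a group. Counting error is the one error given, and regions with few background insertions needed high folds to be called.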
